A study of Mus musculus with 4 samples.

Results

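The genes described here build and run the DNA replication machinery: they license origins, unwind and copy DNA at the fork, supply nucleotides, reassemble chromatin and control entry into S phase. They were chosen as the single-gene probe sets of a list of 41 genes, out of 18193 genes with such a probe set. Of the 41 genes, 40 had at least 1 probe set (87 probe sets in all, of 34945), and Chaf1a was not analysed here. Where a gene had several probe sets, the one with the highest mean of the 4 arrays was used. A gene was tested if that mean lay above a log2 value of 4.173, the 40th percentile over all probe sets other than controls, and 39 of the 40 did. None of the 39 passed only through the knockout arrays, since the wild-type mean of each also exceeded that value. For Cdc6 it did so narrowly, at 4.23, and its wild-type isolation 2, at 3.66, lay below the filter value. Tyms, which encodes thymidylate synthase, did not pass. Its 4 probe sets lay between 2.32 and 3.56 in all arrays, and the one with the highest mean read 3.53 and 3.56 in the knockout and 3.03 and 3.12 in the wild type.

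The cells were primary fibroblasts from newborn mouse skin (postnatal day 1), of genotype adam9 -/- (n = 2 isolations) or adam9 +/+ (n = 2), with 1 array per isolation. ADAM9 is a membrane-anchored metalloprotease that sheds proteins from the cell surface. In both genotypes, equal numbers of cells were plated and grown for 48 h with no treatment. The labels give no strain, sex, passage or number of animals per isolation, and do not describe how the allele was made. Nothing says that an isolation number links a knockout to a wild-type culture. P-values therefore set each difference against the spread between isolations of a genotype, moderated over all genes tested, and that spread may be technical. Precision is limited by the number of arrays. The comparison addresses which genes differ between these cultures without and with ADAM9 at 48 h.

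Before a cell enters S phase, the origin recognition complex, Cdc6 and Cdt1 load rings of the Mcm2-7 helicase onto DNA. Cdc45 and the GINS complex then turn those rings into active helicases, and polymerases, the PCNA clamp and ligase copy both strands. Many of these genes are transcribed in late G1 and S phase under E2F factors, whereas genes of mitosis peak later and often carry a different promoter element, the CHR. In cultured fibroblasts the transcripts as a whole follow the share of cycling cells. In RNA from a whole culture, more cells in S phase and more of such RNA per cell cannot be told apart.

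The 4 arrays differed in more than the Adam9 genotype. Adam9 itself read 8.33 and 8.55 in the knockout and 11.58 and 11.70 in the wild type (log2 difference -3.20, SE 0.147, limma adjusted p = 0.0242). The sources used here do not say whether its probe set lies within the deleted part. Xist was 6.09 log2 units higher in the knockout arrays and the Y-linked Eif2s3y differed by -6.54, so sex-linked expression and genotype cannot be told apart in any difference below. Of 18 macrophage and leukocyte markers, the median was 8.06 in wild-type isolation 1 and 4.49 in wild-type isolation 2, against 4.28 and 4.30 in knockout isolations 1 and 2. Summed over the 18 markers, the log2 values came to 143.7 in wild-type isolation 1 and to between 79.4 and 85.0 in the others. The 2 highest there, Lyz2 and Ctss, read 12.56 and 10.07 in that array, and none of the 18 was listed at 0. With that array left out, the median difference of the 39 replication genes was 1.48 against 1.46 with all arrays. All 14 fibroblast markers exceeded the filter value, with medians from 11.54 to 12.38. Wild-type isolation 2 was lower than wild-type isolation 1 in 13 of the 14, and 4 were over 2-fold apart, with Lum at 10.13 against 12.38 to 12.81 in the other arrays and Pdgfra at 10.35 against 11.93 to 12.31. With wild-type isolation 2 left out, the median difference of the replication genes was 1.39. The 9 keratinocyte, 9 endothelial and 6 melanocyte markers had medians of 3.52 to 4.60, but single markers lay higher. Of 3 keratinocyte markers above the filter value, 1 had a positive difference and 2 a negative one. Dsp read 3.06 and 3.55 in the knockout and 4.84 and 6.75 in the wild type. Krt10 lay between 6.49 and 7.17 in the 4 arrays.

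Because the genes have transcription in S phase in common, the stretches of their promoters that hold E2F-type sequences are shown first. Of the 41 genes, 33 had a promoter in the RefSeq table of build GRCm38.p6, which covers 250 bases before to 50 bases after each listed start. The promoters were searched on both strands for TTTCCCGC, TTTGGCGC, TTTCGCGC and TTTGCCGC. These letters occurred in 12 of the 33 genes (36.4%), against 704 of all 27025 genes in the table (2.60%). Counted by promoter the shares were 12 of 38 (31.6%) and 744 of 32851 (2.26%). The 8 genes with a match before the start are printed 5′ to 3′ on the strand of the gene, with the matched letters in capitals and up to 40 bases on each side. Adjoining capitals in Mcm6 and Mcm5 are a pair of overlapping matches on opposite strands.
Rfc3: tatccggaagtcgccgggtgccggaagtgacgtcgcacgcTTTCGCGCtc
Orc1: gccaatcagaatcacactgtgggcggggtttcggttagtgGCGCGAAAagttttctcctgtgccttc
Mcm6: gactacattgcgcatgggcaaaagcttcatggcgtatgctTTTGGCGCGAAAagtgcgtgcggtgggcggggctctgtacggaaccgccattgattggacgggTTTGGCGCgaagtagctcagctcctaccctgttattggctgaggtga
Cdc6: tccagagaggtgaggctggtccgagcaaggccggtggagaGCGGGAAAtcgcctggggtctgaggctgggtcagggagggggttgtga
Pola1: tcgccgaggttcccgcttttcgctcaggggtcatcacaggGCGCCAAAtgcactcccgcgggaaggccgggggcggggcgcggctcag
Mcm5: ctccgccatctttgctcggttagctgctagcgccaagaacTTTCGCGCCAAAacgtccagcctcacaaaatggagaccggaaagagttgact
Mcm7: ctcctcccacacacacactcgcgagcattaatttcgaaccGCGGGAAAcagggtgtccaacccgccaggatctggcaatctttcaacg
Uhrf1: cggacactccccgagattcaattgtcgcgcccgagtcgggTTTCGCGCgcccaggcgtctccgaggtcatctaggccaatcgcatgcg

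The Rfc3 stretch lies at chr5:151651209-151651258 on the minus strand, just before the start, with its match beginning 10 bases before it. Orc1 is shown at chr4:108579387-108579453 (plus strand, match 27 bases before the start) and Mcm6 at chr1:128359706-128359855 (minus strand, matches 47 to 110 bases before the start). The Cdc6 stretch, at chr11:98907973-98908060 (plus strand), and the Pola1 stretch, at chrX:93632246-93632333 (minus strand), each hold a match 138 bases before the start. Mcm5 is at chr8:75109316-75109407 (plus strand, from 153 bases before the start), Mcm7 at chr5:138172001-138172088 (minus strand, 165 bases) and Uhrf1 at chr17:56304088-56304175 (plus strand, 185 bases). The Mcm7 and Uhrf1 stretches each belong to 1 of several starts listed for the gene. Cdt1, Lig1, Mcm3 and Pold1 had a match only after the start.

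Replication and mitosis genes differed in the share with these letters. They were found in 18 of 47 other replication genes (38.3%) and in 1 of 38 mitosis genes (2.63%). The CHR letters TTTGAA or TTCGAA, on either strand, went the other way, with 6 of the 33 genes here (18.2%), 31 of 38 mitosis genes (81.6%) and 21.7% of all genes. CCAAT occurred in 20 of the 33 (60.6%), in 27 of 38 mitosis genes (71.1%) and in 41.1% of all genes. Of 18 E2F-type matches in the 33 genes, 1 overlapped a CCAAT or CHR match. A match is a run of letters and says nothing of binding in these cells. The 12 tested genes with such letters had a median genotype difference of 1.79 log2 units (0.083 to 2.77), and the 19 tested genes with a promoter but no match had one of 1.41 (0.29 to 2.54), and the ranges overlapped.

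Replication genes stood higher in the fibroblasts without ADAM9. All 39 had a positive knockout-minus-wild-type difference, against 50.5% of all 13271 genes tested. Their median was 1.46 log2 units, or 2.76-fold, against 0.0027 over all genes. Both knockout arrays lay above both wild-type arrays for 37 of the 39, a pattern that 23.0% of all genes showed. No gene of the 39 had the reverse, against 22.0% of all genes. For 28 of the 39 the knockout was higher without overlap and by at least 2-fold, against 2.68% of all genes. None was lower to that degree, against 1.73%. No gene of the 39 was called by limma at an adjusted p under 0.05 over all genes tested, a call that 0.0678% of genes reached (0.0151% as higher in the knockout). At an unadjusted p under 0.05, 27 of the 39 were higher, against 6.18% of all genes, and 0 were lower, against 5.24%. The smallest limma adjusted p was that of Tk1, at 0.184. Since these genes were listed with earlier results of the same arrays in view, the counts describe the arrays and are no independent support for a direction.

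**Figure D1:**
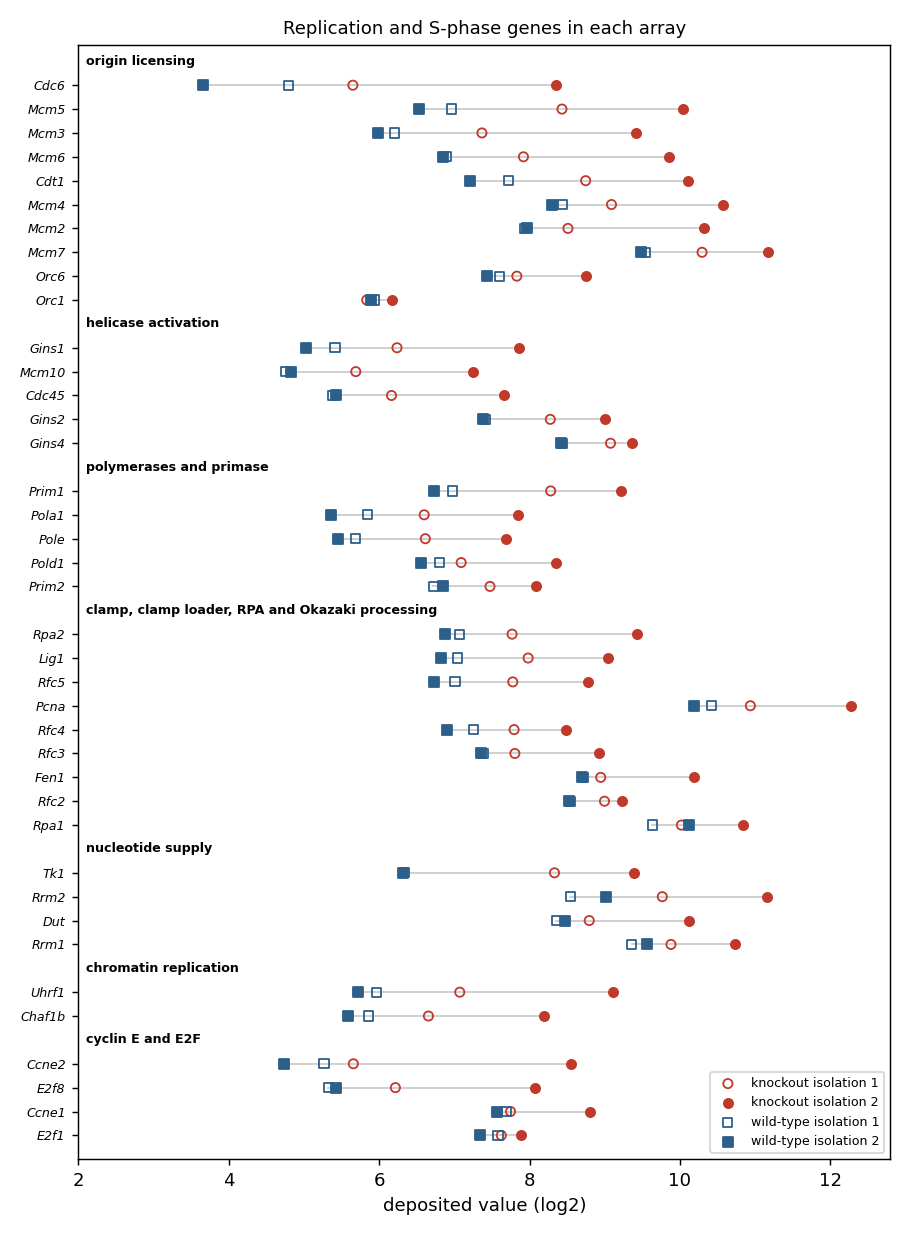
Deposited value, taken as log2 (horizontal axis), of each of the 39 replication and S-phase genes in each of the 4 arrays, grouped by role. Circles are knockout and squares wild-type isolations, open for isolation 1 and filled for isolation 2. In 37 genes the arrays run from both wild-type isolations through knockout isolation 1 to knockout isolation 2, and Orc1 and Rpa1 are the exceptions. Positions of different genes are not comparable, because each is a different probe set.

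A second pattern ran through the knockout arrays themselves. Isolation 2 was above isolation 1 for all 39 genes, against 46.2% of all genes, with a median gap of 1.25 log2 units (0.23 to 2.89). The order of knockout isolation 2 above isolation 1 above both wild-type arrays held for 37 of the 39 and for 14.1% of all genes. The gap between the knockout isolations exceeded 2-fold for 27 of the 39 and for 1.74% of all genes. The wild-type isolations differed by a median of -0.14 (isolation 2 minus isolation 1). Isolation 1 was the higher one for 30 of the 39, against 50.2% of all genes. Of the 39, 1 gene (Cdc6) differed by over 2-fold there, against 3.06% of all genes. Against the wild-type mean, knockout isolation 1 was higher by a median of 0.78 and isolation 2 by a median of 2.12. With 1 array per isolation, these gaps between isolations have no test.

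Genes of origin licensing had a median difference of 1.71 log2 units over 10 genes, second to the 1.98 of the 2 chromatin genes, and 9 of the 10 had no overlap. Cdc6, the ATPase that helps load the helicase, read 5.65 and 8.35 in knockout isolations 1 and 2 and 4.80 and 3.66 in the wild type. Between isolations the SD was 1.91 without ADAM9 and 0.803 with it (n = 2 each), and the difference was 2.77 (SE 0.998, limma adjusted p = 0.430). The knockout isolations were further apart than knockout isolation 1 was from the wild type. Wild-type isolation 2 of Cdc6 lay below the filter value, and without that array the difference was 2.20. Cdt1, its partner in loading, stood at 8.75 and 10.10 in the knockout and 7.72 and 7.20 in the wild type (difference 1.96, SE 0.505, limma adjusted p = 0.339). No wild-type value reached a knockout value in either gene.

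The 6 subunits of the Mcm2-7 ring stood higher together, by 1.22 to 2.49 log2 units. Mcm5 had the largest difference of the ring, with 8.43 and 10.04 in the knockout and 6.96 and 6.53 in the wild type (2.49, SE 0.575, limma adjusted p = 0.300). Mcm3 read 7.37 and 9.42 against 6.20 and 5.98 (difference 2.30), and Mcm6 read 7.92 and 9.85 against 6.89 and 6.85 (difference 2.02). In each of these, knockout isolation 1 was above the wild type by over 1 log2 unit and isolation 2 by about 3. Mcm4 was at 9.09 and 10.57 in the knockout and 8.44 and 8.30 in the wild type (1.46, SE 0.517). The values of Mcm2 were 8.51 and 10.32 against 7.94 and 7.97 (1.46, SE 0.622). Mcm2 in knockout isolation 1 was only 0.56 above the wild-type mean, and its difference rests mostly on isolation 2. Mcm7 had the smallest difference of the ring, with 10.29 and 11.17 against 9.54 and 9.48 (1.22, SE 0.321, limma adjusted p = 0.347).

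The origin recognition complex marks the sites where the ring is loaded. Orc6, its smallest subunit, read 7.83 and 8.76 in the knockout and 7.60 and 7.44 in the wild type (0.77, SE 0.340). Orc1, the subunit whose level varies over the cycle, depended on the probe set. The brighter one read 5.84 and 6.17 in the knockout and 5.94 and 5.90 in the wild type (0.083, SE 0.166, limma adjusted p = 0.880), with overlap, and the difference turned to -0.085 without knockout isolation 2. The other read 4.94 and 6.72 against 4.41 and 4.69, a difference of 1.28 without overlap. Among the stretches printed above, Orc1 has the E2F-type match second nearest to the start.

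All 5 factors that turn the loaded ring into a moving helicase stood higher without overlap, by a median of 2.83-fold. Gins1, a GINS subunit, read 6.24 and 7.87 in the knockout and 5.41 and 5.03 in the wild type (1.83, SE 0.578). Mcm10, which helps start unwinding, read 5.69 and 7.25 against 4.76 and 4.83 (1.68, SE 0.540). Cdc45, the third part of the active helicase, read 6.16 and 7.65 against 5.39 and 5.43 (2.83-fold, SE 0.518 on the log2 scale). In these 3 genes knockout isolation 2 was above isolation 1 by 1.63, 1.56 and 1.49 log2 units. Gins2 read 8.28 and 9.00 against 7.41 and 7.39 (1.24, SE 0.272, limma adjusted p = 0.288). Gins4 stood apart by the closeness of its knockout arrays, at 9.08 and 9.36 against 8.44 and 8.42 (0.79, SE 0.154, limma adjusted p = 0.261). Its difference was small, but over 2 times the gap between its knockout isolations.

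The polymerases and primase differed by a median of 1.58, and all 5 had no overlap. Prim1, the catalytic primase subunit that lays down RNA primers, read 8.28 and 9.22 in the knockout and 6.98 and 6.73 in the wild type. Its means were 8.75 ± 0.666 (SD, n = 2) and 6.86 ± 0.173, a difference of 1.90 (SE 0.350, limma adjusted p = 0.238). Prim1 in knockout isolation 1 alone was 1.43 above the wild-type mean. Prim2, the large primase subunit, read 7.47 and 8.09 against 6.72 and 6.86 (0.99, SE 0.243). Pola1, the catalytic subunit of the polymerase that extends primers, is on the X chromosome and read 6.60 and 7.85 against 5.84 and 5.36 (1.63, SE 0.470). Pole, the leading-strand polymerase, read 6.61 and 7.68 against 5.68 and 5.45 (1.58, SE 0.388). Pold1, the lagging-strand polymerase, read 7.09 and 8.35 against 6.80 and 6.55 (1.04, SE 0.450). Its knockout isolation 1 was 0.29 above the nearer wild-type array, the narrowest gap of the 5.

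Clamp, clamp loader, single-strand binding and Okazaki fragment genes had a smaller median difference, 1.06 log2 units over 9 genes. Pcna, the sliding clamp, read 10.94 and 12.28 in the knockout and 10.43 and 10.18 in the wild type (1.30, SE 0.475, limma adjusted p = 0.432). Of the clamp loader subunits, Rfc5 read 7.78 and 8.78 against 7.01 and 6.73 (1.41, SE 0.372). Rfc4 and Rfc3 differed by 1.06 (SE 0.288) and 0.99 (SE 0.396). Rfc2 had the second smallest difference of the 9, 0.58 (SE 0.143), and closely placed arrays at 9.00 and 9.23 against 8.54 and 8.52. All 4 loader subunits had no overlap, and differences between them were not tested.

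Rpa2 and Rpa1, subunits of the complex that coats single-stranded DNA, differed from each other. Rpa2 read 7.77 and 9.44 in the knockout and 7.06 and 6.88 in the wild type (1.63, SE 0.579). Rpa1 read 10.02 and 10.83 against 9.63 and 10.12 (0.55, SE 0.342, limma adjusted p = 0.582), so that wild-type isolation 2 lay above knockout isolation 1. Without wild-type isolation 1 the Rpa1 difference was 0.31, and without knockout isolation 2 it was 0.14. Lig1, which joins Okazaki fragments, read 7.98 and 9.05 against 7.05 and 6.82 (1.58, SE 0.387). Fen1, the flap nuclease that trims them, read 8.95 and 10.18 against 8.72 and 8.70 (0.86, SE 0.434). Most of the Fen1 difference came from knockout isolation 2, and without that array it was 0.24.

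Among nucleotide supply genes, Tk1, the thymidine kinase of S phase, had the clearest separation of all 39 genes. It read 8.33 and 9.39 in the knockout and 6.33 and 6.32 in the wild type, with means of 8.86 ± 0.748 (SD, n = 2) and 6.32 ± 0.012. The difference was 2.54 log2 units, or 5.81-fold (SE 0.377, limma adjusted p = 0.184). Knockout isolation 1 alone was 2.01 above the wild-type mean, the largest such gap among the 39. Rrm2, the ribonucleotide reductase subunit that limits deoxynucleotide supply in S phase, read 9.77 and 11.16 against 8.54 and 9.01 (1.69, SE 0.511). Its partner Rrm1 read 9.88 and 10.73 against 9.36 and 9.56 (0.85, SE 0.320). Dut, which removes dUTP, read 8.79 and 10.12 against 8.36 and 8.47 (1.04, SE 0.464). All 4 had no overlap.

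Both tested genes of chromatin replication stood higher. Uhrf1, which brings the maintenance methyltransferase to newly copied DNA, read 7.07 and 9.12 in the knockout and 5.97 and 5.73 in the wild type (2.25, SE 0.706, limma adjusted p = 0.392). Chaf1b, a subunit of the factor that deposits histones behind the fork, read 6.66 and 8.19 against 5.86 and 5.58 (3.26-fold, SE 0.542 on the log2 scale). In both, the knockout isolations were further apart than knockout isolation 1 was from the wild-type mean.

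The cyclins E and the E2F factors, which act on entry into S phase, differed by 0.29 to 2.10 log2 units. All 4 had no overlap in the probe set used. Ccne2 read 5.66 and 8.55 in the knockout and 5.27 and 4.74 in the wild type (2.10, SE 1.000, limma adjusted p = 0.507). The gap between its knockout isolations, 2.89, was the widest of the 39, and without isolation 2 the difference was 0.65. Ccne1 read 7.75 and 8.81 against 7.69 and 7.57 (0.65, SE 0.380). Its knockout isolation 1 exceeded wild-type isolation 1 by 0.055. E2f8, a repressor that is itself made in S phase, read 6.22 and 8.07 against 5.32 and 5.42 (1.77, SE 0.638). E2f1, an activator, read 7.62 and 7.88 against 7.58 and 7.34 (0.29, SE 0.169, limma adjusted p = 0.559). Although the E2f1 probe set used showed no overlap, its difference was close to the gap between the wild-type arrays, 0.24, and was 0.17 without wild-type isolation 2. The second probe sets of Ccne1 (difference 0.73) and E2f1 (0.25) overlapped between genotypes.

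**Figure D2:**
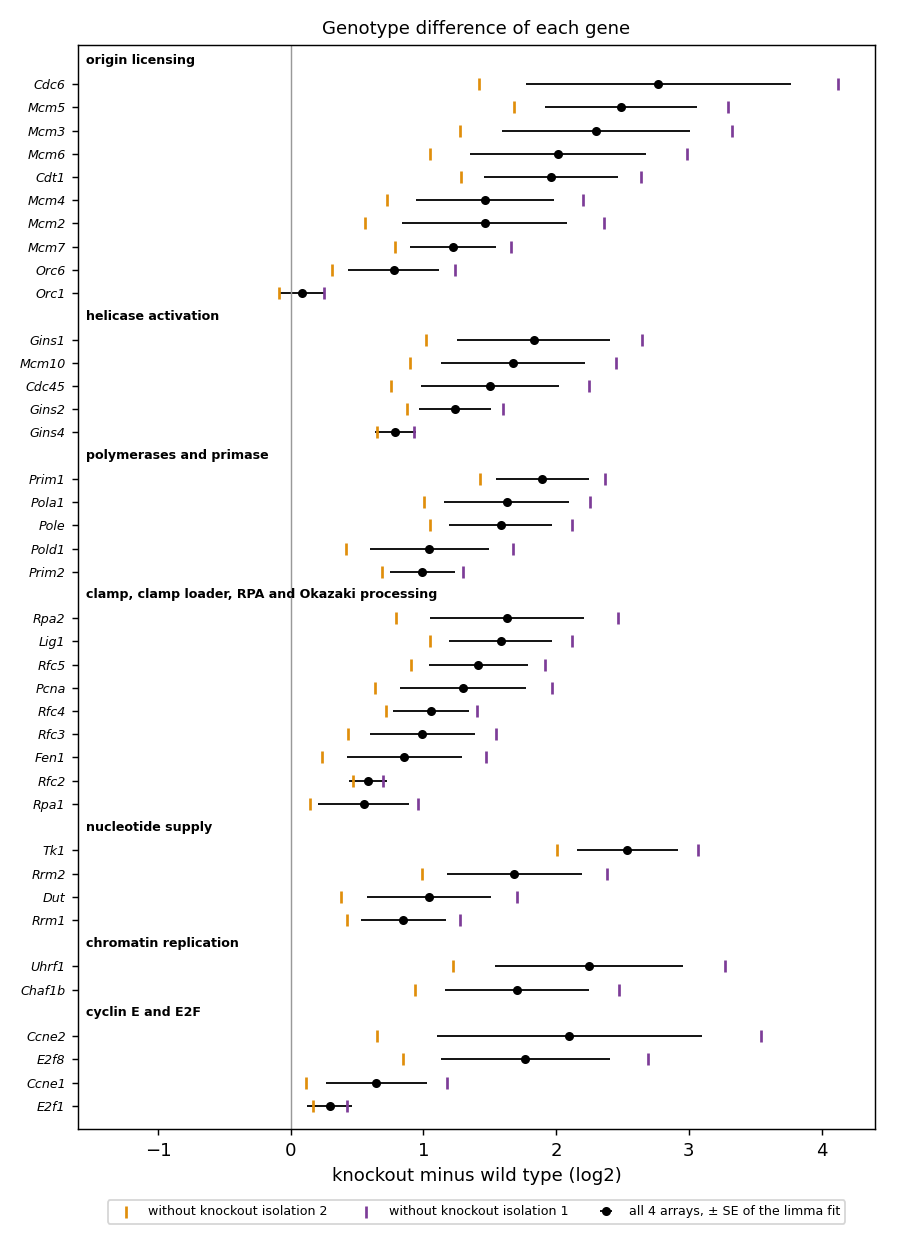
Knockout minus wild-type difference in log2 units (horizontal axis) for the 39 genes by role, with bars of 1 SE of the limma fit. Coloured ticks give the value with 1 knockout array left out. Without knockout isolation 2 the median is 0.78, and without knockout isolation 1 it is 2.12. The sign changes for Orc1, whose value without knockout isolation 2 is -0.085.

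The size of the difference depended on which knockout array was used, and its sign did so for Orc1 alone. Leaving out knockout isolation 2 reduced the median from 1.46 to 0.78 and the genes higher by at least 2-fold without overlap from 28 to 12. It left 37 genes without overlap, when 39.6% of all genes were. For 30 of the 39 genes the difference over all arrays was more than 1.5 times the one without isolation 2. Among the most affected were Ccne1 (0.12 without it), Rpa1 (0.14), Fen1 (0.24), Dut (0.38) and Mcm2 (0.56). The least affected were Gins4 (0.65), Rfc2 (0.47), Tk1 (2.01) and Prim1 (1.43). Leaving out knockout isolation 1 raised the median to 2.12. Within isolation numbers, the median was 0.76 for isolation 1 and 2.22 for isolation 2 (knockout minus wild type). Leaving out wild-type isolation 1 or 2 moved the median to 1.48 or 1.39.

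Several genes had more than 1 probe set, which gives a second reading of the same RNA but no further replicate. Of the 87 probe sets, 74 exceeded the filter value. They included 35 that were not used above, in 26 genes. All 35 had a positive difference, with a median of 1.30 log2 units, against 50.5% of all genes with the probe set used. For 29 of the 35 both knockout arrays lay above both wild-type arrays. Of all genes, 23.0% showed this with the probe set used, and 22.2% with the second highest or only one. In 9 genes a further probe set was over 0.5 log2 units from the one used. The second Cdc45 probe set read 5.18 and 5.42 in the knockout and 5.30 and 5.14 in the wild type, a difference of 0.082, where the brighter one had 2.83-fold. A Chaf1b probe set at 4.66 and 4.56 against 4.30 and 4.45 differed by 0.24, where the brighter one had 3.26-fold. A dim probe set of Dut (0.21 against 1.04) and the third of Prim2 (0.13 against 0.99) also differed less, while in Fen1 the dimmer probe set gave the larger difference (1.39 against 0.86). The dim readings of Dut, Prim2 and Cdc45 overlapped between genotypes, and so did the second probe sets of Ccne1, E2f1 and Rpa1. The third Mcm5 probe set differed by 0.87, where the one used had 2.49 and the second 2.31, and 0.87 against 2.49 was the widest disagreement among the 9 genes. The 13 probe sets below the filter value differed by -0.15 to 0.48.

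**Figure D3:**
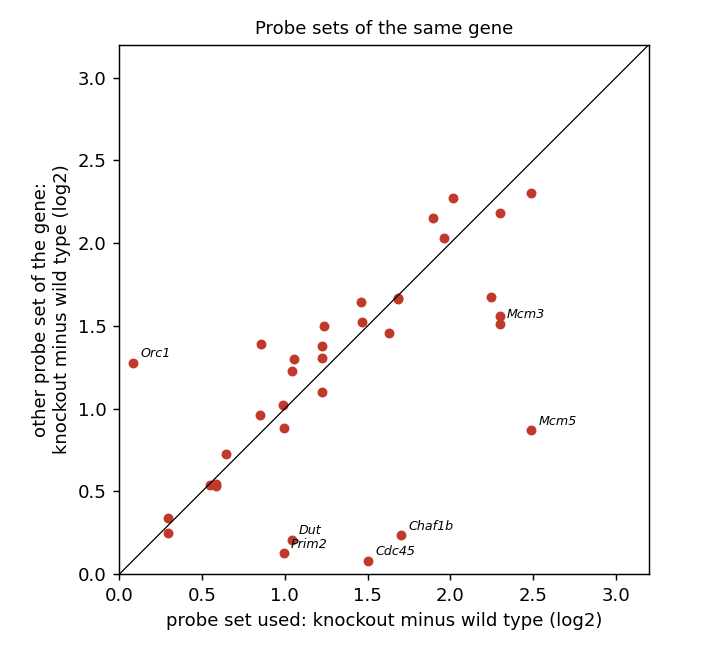
Genotype difference (knockout minus wild type, log2 units) of the probe set used for a gene (horizontal axis) against that of each of its other probe sets above the filter value (vertical axis, 35 probe sets in 26 genes). All points lie above 0. Labelled genes are those with readings over 0.7 apart, and the diagonal marks equal values.

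The rest of the replication pathway stood higher to a smaller degree. Of 54 further replication genes tested, 51 had a positive difference (50.5% of all genes), with a median of 0.88 log2 units. Without overlap, 46 were higher and none lower, against 23.0% and 22.0% of all genes, and 22 were also at least 2-fold higher, against 2.68%. None was called by limma at an adjusted p under 0.05 (0.0678% of all genes), and 29 were higher at an unadjusted p under 0.05, against 6.18% of all genes. Dscc1, a subunit of the alternative clamp loader for sister cohesion, read 5.70 and 7.27 in the knockout and 3.82 and 3.21 in the wild type (2.97, SE 0.583, limma adjusted p = 0.262). Exo1, a repair nuclease, differed by 2.65, Pole2, a polymerase epsilon subunit, by 2.46 and Ccna2, the cyclin of S phase and G2, by 2.37. The wild-type means of Dscc1 and Exo1 were below the filter value, so these genes were tested only through their knockout arrays. Knockout isolation 2 exceeded isolation 1 for 49 of the 54, by a median of 0.83.

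A list of pocket proteins, E2f4 to E2f6, Tfdp2 and Lin genes was close to the background of all genes. The repressor E2f8, counted above, and E2f7 were outside this list. Of 11 tested, 6 had positive differences (50.5% of all genes) and 5 negative, with a median of 0.021. Without overlap, 2 were higher and 2 lower, against 23.0% and 22.0% of all genes. Rbl1, the pocket protein p107, read 6.96 and 7.95 in the knockout and 6.13 and 5.45 in the wild type (1.67, SE 0.425, limma adjusted p = 0.336). Rb1, the retinoblastoma protein that restrains E2F, read 7.59 and 6.96 against 7.98 and 8.44 (-0.93, SE 0.291, limma adjusted p = 0.392). Rbl1 and Rb1 each had no overlap, in opposite directions. Lin9 and Lin54, of the complex that controls cell cycle promoters, differed by 0.74 and 0.39.

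**Figure D4:**
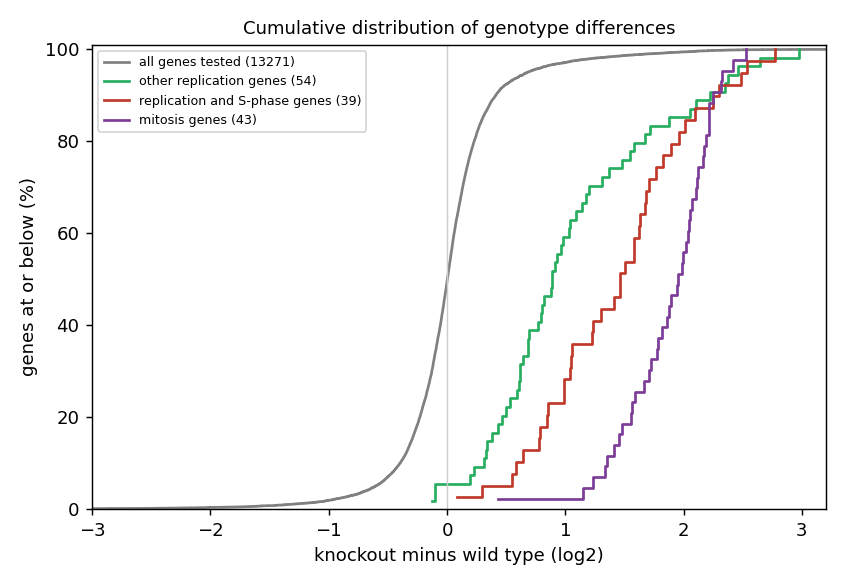
Percentage of genes (vertical axis) at or below a given knockout-minus-wild-type difference in log2 units (horizontal axis, drawn from -3 to 3.2) for all 13271 genes tested and 3 lists. The medians are 0.0027 for all genes, 0.88 for other replication genes, 1.46 for the 39 replication and S-phase genes and 1.95 for mitosis genes.

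Mitosis genes, the nearest other phase of the cycle, were set beside the replication genes to see where the latter differ. All 43 tested had positive differences (50.5% of all genes), with a median of 1.95, and in all 43 the knockout was higher without overlap (23.0% of all genes). The wild-type mean of 1 of them, Depdc1a, was below the filter value. None was called by limma at an adjusted p under 0.05 (0.0678% of all genes), and all 43 were higher at an unadjusted p under 0.05 (6.18% of all genes). Cenpf, a kinetochore protein, read 6.74 and 6.57 in the knockout and 4.16 and 4.32 in the wild type (2.42, limma adjusted p = 0.0520). Nuf2, another kinetochore protein, read 7.57 and 7.81 against 5.37 and 5.37 (2.32, limma adjusted p = 0.0556). Depdc1a and Aurkb, the kinase of the chromosomal passenger complex, differed by 2.53 and 2.32. The lists parted between the knockout isolations. Replication genes were higher in isolation 2 for 39 of 39, by a median of 1.25, and mitosis genes for 23 of 43, by a median of 0.10. A gap of over 2-fold toward isolation 2 was seen in 27 of the 39 replication genes and in 1 of the 43 mitosis genes. The opposite gap was seen in 0 replication genes and 3 mitosis genes, against 2.22% of all genes. Against the wild-type mean, knockout isolation 1 was higher by 0.78 (replication) and 1.88 (mitosis), and isolation 2 by 2.12 and 1.96, as medians. Knockout isolation 2 thus had both lists at about the same height above the wild type, and isolation 1 had replication genes lower than mitosis genes. This contrast rests on 1 array for each isolation and was not tested.

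**Figure D5:**
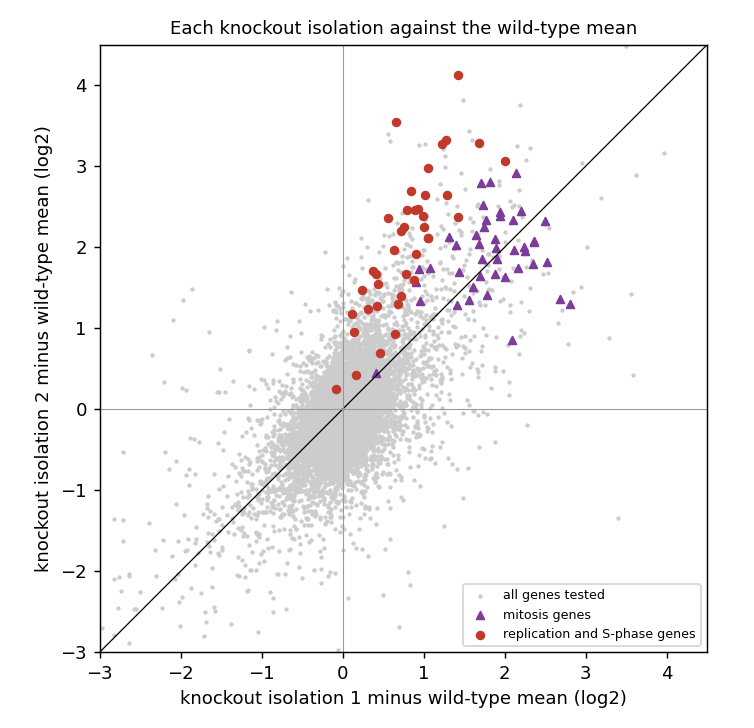
Each gene's value in knockout isolation 1 (horizontal axis) and isolation 2 (vertical axis), both minus the wild-type mean, in log2 units. The line marks equal values, and genes outside the axes (-3 to 4.5) are not drawn. All 39 replication and S-phase genes (circles) lie above the line, and the 43 mitosis genes (triangles) lie on both sides of it, with 23 above.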

How the data were processed

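Gene expression was measured on 4 arrays with a kit that primes from the 3′ end of transcripts, 1 per isolation. The authors deposited a single log2-scale value for each probe set on each array, from Affymetrix Expression Console per the submitters' processing notes. The sources used here do not give its version, summary method or log base. The values reached 14.4 and were taken as log2. With another base, folds would change and orders would not. No detection calls were used, so low values have no stated background, and folds from them may be compressed. Probe sets were paired with genes through the platform annotation, with symbols updated by Entrez identifier for 34741 of 34945 single-gene probe sets (932 named several genes, 9160 none). Genotypes were compared over 13271 genes with limma (version 3.58.1, functions lmFit and eBayes, R version 4.3.3; no block, 2 residual and 2.38 prior degrees of freedom), adjusted by Benjamini-Hochberg. SE is that of the moderated fit. An exact permutation test of 2 against 2 arrays cannot go below 0.333. The procedure was tested on simulated data with noise drawn independently for each gene. Genes do not shift together between isolations in that setting, unlike the genes here. All members were named, and of other lists the 4 genes with the largest difference; other genes named were chosen after their values were seen. Promoter stretches are those of all members with a match before the start. Members and lists were chosen with earlier results of these data known. Alternatives were other filters, normalizations, probe set choices and variance models, the isolation number as a block, and each array left out.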

Additional observations from a re-analysis of the deposited data

How the results depend on the processing

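Over 16 alternatives the 39 genes gave 617 gene values, of which 616 kept their direction and stayed on the same side of the threshold. The exception was Orc1, which ranged from -0.085 (without knockout isolation 2) to 0.25 with single arrays left out. Much of this count was fixed in advance. Other filters, the block, array weights and the variance model leave a gene's difference unchanged, so its direction could not turn there. Fits with an array left out have 1 array in a genotype, so staying on the same side of the threshold says little. No replication gene was called by limma under any alternative. Their smallest limma adjusted p was between 0.126 and 0.718 across the alternatives. With each array left out in turn, the members higher at an unadjusted p under 0.05 numbered 5 to 37, and those higher by at least 2-fold without overlap 12 to 34. The median over members ranged from 0.78 to 2.12 in those fits, and was lowest, at 1.22, with the mean over probe sets among the others. The genes called over all 13271 numbered 9, 0 with any single array left out, 4 of 11500 tested with the second highest probe set and 2 with the isolation number as a replicate block. The deviations of same-numbered isolations from their genotype means correlated with r = 0.116 across genes, and with 2 numbers this does not show that the numbers pair the cultures. The block gave 31 members higher at an unadjusted limma p under 0.05, against 6.47% of all genes, and changed no call of a member. With other normalizations the median of all genes stayed within 0.02 of 0. The cause of the changes was not tested. Precision is limited by 2 arrays per genotype. Differences from dim probe sets may be compressed, which was not tested.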
